A study of Monodelphis domestica with 9 samples.

Results

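CSF3R, MPO, CEBPE, ALAS2, GATA1, KLF1, EPB42 and GYPC are 8 genes of marrow cells. They were chosen by symbol from the 22725 genes of the deposited table, 3 of them for neutrophils (CSF3R, MPO and CEBPE) and 5 for the red cell line (ALAS2, GATA1, KLF1, EPB42 and GYPC). The tissue came from pups of the grey short-tailed opossum, a marsupial, with 3 pups at each of postnatal days 16, 18 and 20, from a breeding colony and with no treatment named in the labels. It was cut by laser from cryosections where MC (Meckel's cartilage, the cartilage of the embryonic jaw) meets the malleus, with little of the surrounding perichondrium, and sequencing followed amplification of its RNA. The table gives the authors' mean FPKM (sequenced fragments relative to transcript length and to library size) of 3 conditions coded q1, q2 and q3. No source used here pairs the codes with the 3 ages, so the codes are kept. Because there is no value per animal, no spread, standard error or test can be given, and whether any difference below exceeds the spread between animals is not known.

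Neutrophils and red cells are made in the marrow that forms once a cartilage or bone is invaded by vessels and resorbed. In the neutrophil line the receptor encoded by CSF3R receives granulocyte colony-stimulating factor. MPO is the peroxidase of the first granules a neutrophil precursor makes, and the factor encoded by CEBPE switches on the later granule proteins. In the red cell line GATA1 and KLF1 are transcription factors that activate globin, haem and membrane genes. ALAS2 is the erythroid enzyme of the first step of haem synthesis. EPB42 (protein 4.2) ties the membrane skeleton to the anion exchanger of the red cell, and GYPC (glycophorin C) ties it to protein 4.1. GYPC is also made outside the red cell line, and GATA1 also in megakaryocytes, mast cells and eosinophils.

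Values of a gene were summed over its TSS groups, which are sets of its transcripts that share a start site. All 8 genes are listed in q1 and q2. In q3 the 5 genes CSF3R, MPO, CEBPE, KLF1 and GYPC are listed, so all neutrophil genes but only 2 of the 5 red cell genes have a value in q3. The q3 values of ALAS2, GATA1 and EPB42 were not analysed here. In q2 against q1 the authors' software left CSF3R, CEBPE and KLF1 untested, as well as 3 of the 4 TSS groups of GATA1. For q3 against q1 it left CEBPE untested and tested the other 4 listed genes.

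These values stand within a shift of all genes. Over the 11353 genes with a value above 0 in both conditions and at least 1 FPKM in 1 of them, the median log2 ratio of q2 to q1 was 0.60. It was 1.92 for q3 to q1 over 9610 genes and 1.33 for q3 to q2 over 9408 genes. Ratios below are to be read against these medians. Of the defining genes of the labelled tissue, COL9A2 and COL11A2 of cartilage were present, at 363 and 126 FPKM in q1. COL2A1, the main collagen of cartilage, and COL1A2 of bone are listed at 0 in q1 and q2, so a 0 in this table can be a failed estimate. Genes of bone and of clasts, the cells that resorb bone and calcified cartilage, were also abundant. BGLAP had 441, 2531 and 3980 FPKM in q1, q2 and q3, and CTSK had 671, 2935 and 12823 FPKM.

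In level, MPO stood far above CSF3R and CEBPE in every condition. MPO (TSS125278, chromosome 2 from 174202811 to 174213802, as the table numbers its unnamed genome build) had 29.2 FPKM in q1, 66.9 FPKM in q2 and 172 FPKM in q3. It was thus highest in q3 and lowest in q1, as most genes were. The log2 ratio of MPO was 1.20 in q2 against q1, which is 0.59 above the median of all genes and exceeded by 20.0% of them. For q3 against q1 the log2 ratio of MPO was 2.55, or 0.63 above the median, with 25.3% of genes above it. For q3 against q2 it was 1.36, only 0.03 from the median. By level MPO lay at percentiles 97.8, 98.2 and 98.1 of all genes in q1, q2 and q3. MPO was thus near the top of all genes in each condition, where a percentile can rise little, and its FPKM was 5.87 times as high in q3 as in q1. In bulk tissue a larger share of cells of a type and more RNA per cell cannot be told apart.

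CSF3R was close to the bottom of the measured range in q1 and q2. CSF3R (TSS305059, chromosome 4 from 419478706 to 419500636) had 0.0826 FPKM in q1, 0.220 FPKM in q2 and 2.67 FPKM in q3. Only the q3 value is above 1 FPKM, and by level CSF3R lay at percentiles 24.6, 33.8 and 58.1 in q1, q2 and q3. Its log2 ratio of q3 to q1 was 5.01, which is 3.09 above the median of all genes. That ratio rests on a q1 value near 0, and CSF3R entered the comparison only through q3. With 1 FPKM added to both values the log2 ratio of CSF3R was 1.76. The ratio of the FPKM of CSF3R to that of MPO was 0.0155 in q3, against 0.00283 in q1.

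CEBPE (TSS2609, chromosome 1 from 427167408 to 427168140) is listed at 0 in q1 and q2 and had 0.153 FPKM in q3. No fold change can be given against a value listed at 0. The locus assembled for CEBPE spans 733 bases, while the gene spans 2722 bases in RefSeq (assembly mMonDom1). The q3 value stayed under 1 FPKM, at percentile 29.7 of all genes. The 3 neutrophil genes therefore held 3 very different levels, and MPO made up nearly all of their sum.

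**Figure D1:**
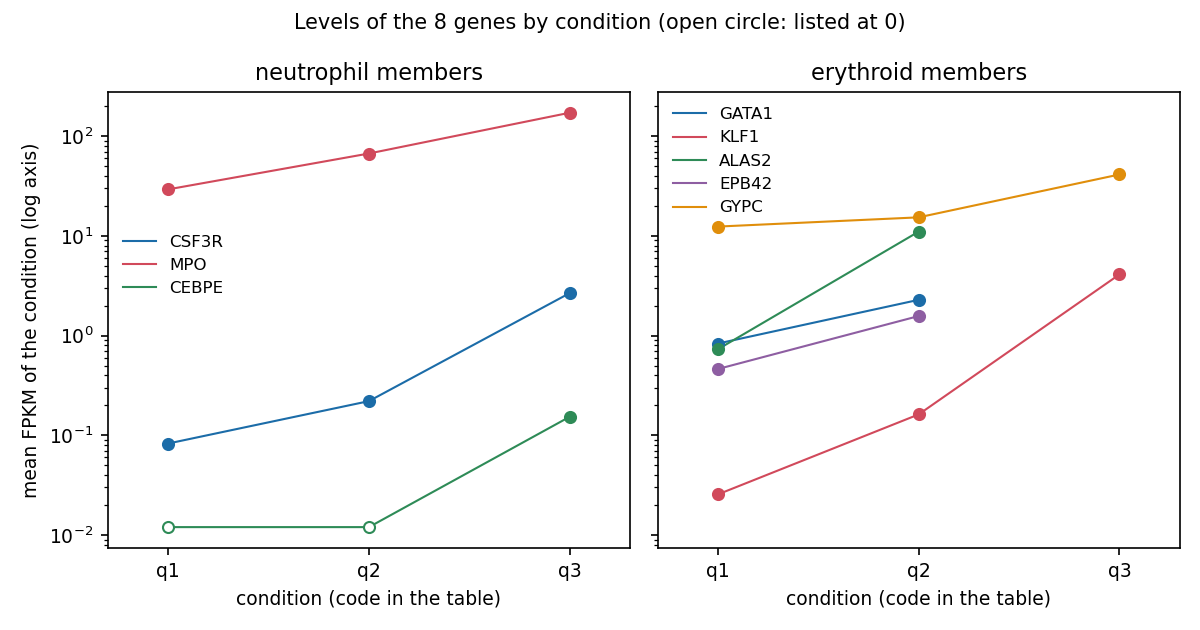
Mean FPKM of each of the 8 genes in q1, q2 and q3 on a log axis, with the neutrophil genes on the left and the red cell genes on the right. Open circles at the bottom mark CEBPE, listed at 0 in q1 and q2, and lines that end at q2 belong to genes with no q3 value here. Of the genes with a value in each condition, MPO is the highest, at 172 FPKM in q3, and GYPC is the next.

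The 2 transcription factors of the red cell line were low in q1. KLF1 (TSS209986, chromosome 3 from 447534878 to 447538279) had 0.0255 FPKM in q1, 0.162 FPKM in q2 and 4.11 FPKM in q3. Its log2 ratio of q3 to q1 was 7.33, or 5.41 above the median of all genes, and 0.333% of genes had a larger one. Like CSF3R, KLF1 passed 1 FPKM in q3 alone, and with 1 FPKM added to both values its log2 ratio was 2.32. By level KLF1 lay at percentiles 17.8, 31.5 and 64.3 in q1, q2 and q3.

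GATA1 (chromosome X) had a summed 2.28 FPKM in q2, against 0.831 FPKM in q1. The log2 ratio of GATA1 was 1.46, which is 0.85 above the median. TSS575077, the only one tested, held most of both sums, with 1.44 FPKM in q2 and 0.695 FPKM in q1. Its log2 ratio alone was 1.05. TSS575076 had 0.546 FPKM in q2 and almost nothing in q1, TSS575078 had 0.299 FPKM in q2 and 0.136 FPKM in q1, and TSS575079 was near 0 in both. The locus given for GATA1 runs from 71350477 to 72097680 and also holds TSS groups of 37 other genes, so its bounds are not those of GATA1 alone. How reads were divided among these genes is not known.

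ALAS2 had the largest ratio of q2 to q1 among the red cell genes with at least 1 FPKM in 1 of both conditions. ALAS2 (chromosome X from 69723866 to 69758428, a locus with 1 other gene) had a summed 11.0 FPKM in q2, against 0.728 FPKM in q1. The log2 ratio of ALAS2 was 3.92, which is 3.32 above the median, and 0.502% of genes had a larger one. Both of its TSS groups were higher in q2, but unequally. TSS574562 had 8.69 FPKM in q2 and 0.291 FPKM in q1, and TSS574561 had 2.33 FPKM in q2 and 0.437 FPKM in q1. With 1 FPKM added to both sums the log2 ratio of ALAS2 was 2.80. By level ALAS2 lay at percentile 91.7 in q2, against 51.1 in q1.

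The 2 genes of the red cell membrane differed in level. EPB42 (TSS5903, chromosome 1 from 200908629 to 200934398) had 1.57 FPKM in q2, against 0.462 FPKM in q1. The log2 ratio of EPB42 was 1.77, or 1.16 above the median, and 0.81 with 1 FPKM added. GYPC (TSS302988, chromosome 4 from 111904007 to 112001092) had 12.4 FPKM in q1, 15.3 FPKM in q2 and 41.3 FPKM in q3. The log2 ratio of GYPC was 0.31 in q2 against q1 and 1.74 in q3 against q1. Relative to the median of all genes these are -0.30 and -0.19, so GYPC was higher in q3 than in q1 in FPKM but not beyond the shift. By level GYPC lay at percentiles 95.4, 93.7 and 93.2 in q1, q2 and q3.

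Of the genes with at least 1 FPKM in 1 of both conditions, MPO was at least 2-fold higher in q2 than in q1, as were GATA1, ALAS2 and EPB42, while GYPC was within 2-fold. Of all 11353 genes, 28.7% were at least 2-fold higher in q2 and 6.81% at least 2-fold lower. GATA1, ALAS2 and EPB42 were below 1 FPKM in q1 and entered only through q2. For q3 against q1, MPO, CSF3R, KLF1 and GYPC were all at least 2-fold higher in q3, as were 76.3% of all genes, and 6.05% were at least 2-fold lower. The same 4 genes were at least 2-fold higher in q3 than in q2, beside 66.4% of all genes, with 4.34% at least 2-fold lower. A ratio of this size is thus common in both comparisons with q3. None of the 8 genes was lower in a comparison, CEBPE being listed at 0 in both q1 and q2.

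Too few genes passed for the ratios of neutrophil and red cell genes to be set apart or called alike. In q2 against q1 the only neutrophil gene that passed the level of 1 FPKM was MPO, at 1.20, and the 4 red cell genes that did had a median of 1.61, so that the difference of neutrophil minus red cell genes was -0.42. Between q3 and q1 the median was 3.78 for MPO and CSF3R and 4.53 for KLF1 and GYPC, a difference of -0.75. These medians rest on 1, 2 or 4 genes, of which GATA1, ALAS2, EPB42, CSF3R and KLF1 passed only through the higher condition, and the differences turn positive with 1 FPKM added to each value (0.34 and 0.15). The FPKM of MPO was 2.36 times that of GYPC in q1, 4.37 times in q2 and 4.16 times in q3. Such ratios within a condition are not moved by a shift of all genes. The ratio of CSF3R to KLF1 was 3.24, 1.36 and 0.650 in q1, q2 and q3. Both genes were far below 1 FPKM in q1 and q2, so the ratios there rest on values near 0.

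**Figure D2:**
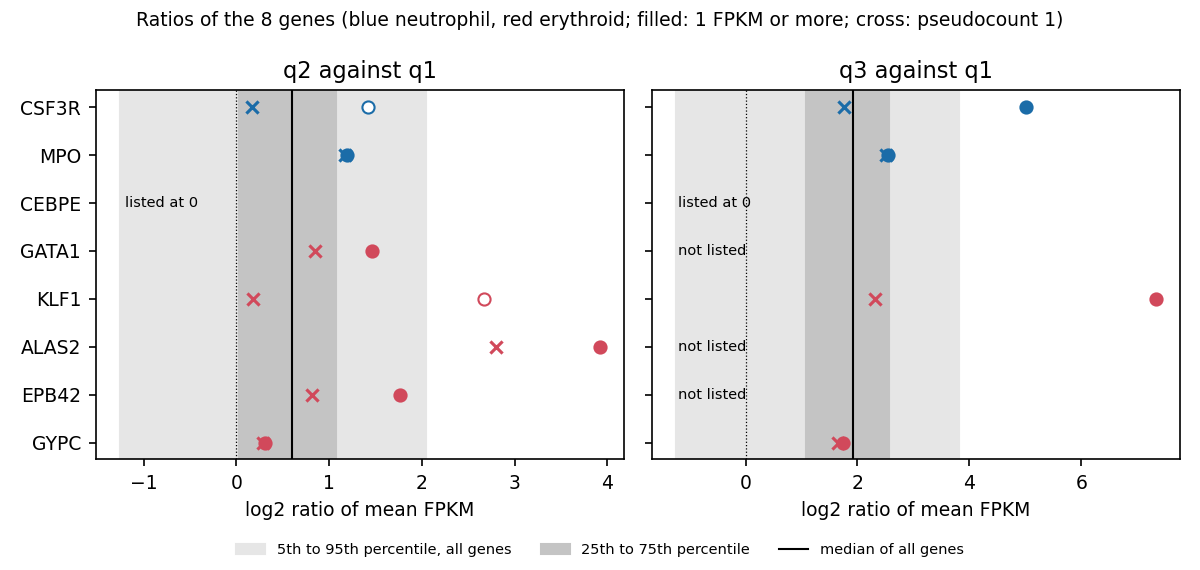
Log2 ratios of mean FPKM of the 8 genes in q2 against q1 (left) and q3 against q1 (right). Circles are ratios without a pseudocount, filled where the gene had at least 1 FPKM in 1 of both conditions, and crosses the same with 1 FPKM added. The grey bands hold the middle of all genes by percentile, and the black line is the median of all genes, 0.60 on the left and 1.92 on the right. The line was computed without a pseudocount, so only the circles compare with it. On the right the crosses of CSF3R and KLF1, at 1.76 and 2.32, lie far to the left of their circles, at 5.01 and 7.33.

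A wider list of 28 neutrophil granule and function genes shows how far MPO stands for its line. Of these, 19 are in the table and 13 passed 1 FPKM in q2 or q1. In q2 against q1, 3 were at least 2-fold higher (MPO, CHIT1 and CYBA), 3 at least 2-fold lower (BPI, S100A9 and S100A12), beside 28.7% and 6.81% of all genes. The median log2 ratio of the 13 was -0.11, against 0.60 for all genes. For q3 against q1 the median of the 13 genes that passed was 1.08, against 1.92, and 4 of them exceeded that of all genes. Of the genes that passed, 2 did so only through q2 in q2 against q1, and 3 only through q3 in q3 against q1. BPI passed in both comparisons only through q1, where it had 1.23 FPKM. The 15 genes listed in every condition summed to 203, 167 and 455 FPKM in q1, q2 and q3.

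S100A8 and S100A9, the calcium-binding proteins that fill the neutrophil cytosol, did not follow MPO. S100A8 had 87.1, 49.9 and 125 FPKM in q1, q2 and q3, and S100A9 had 37.6, 15.8 and 52.5 FPKM. Both were lowest in q2, where MPO lay between its other values. S100A8 had a log2 ratio of q2 to q1 of -0.80, and S100A9 one of -1.25. MPO was 0.336 times as high as S100A8 in q1, 1.34 times in q2 and 1.37 times in q3. PGLYRP1, a granule protein that binds bacterial cell walls, had 21.2, 14.5 and 44.7 FPKM in q1, q2 and q3. BPI, a granule protein that kills Gram-negative bacteria, had 1.23 FPKM in q1, 0.309 FPKM in q2 and 0.0336 FPKM in q3.

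Of the oxidase that makes superoxide, the membrane subunits differed in their ratios. CYBA, the small one, had 122 FPKM in q2, against 43.3 FPKM in q1 (log2 ratio 1.49, which 88.1% of all genes did not reach). CYBB, the catalytic subunit, had 1.62, 2.44 and 4.81 FPKM in q1, q2 and q3. Its log2 ratios to q1 were 0.59 in q2 and 1.57 in q3, both under the medians of all genes. Macrophages and clasts also make oxidase subunits. ELANE and PRTN3, serine proteases stored in the same granules as MPO, are listed at 0 in q1 and q2. The symbols AZU1, CTSG, LTF, LCN2, CAMP and LYZ of further granule proteins were not found in the table and are not analysed here.

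**Figure D3:**
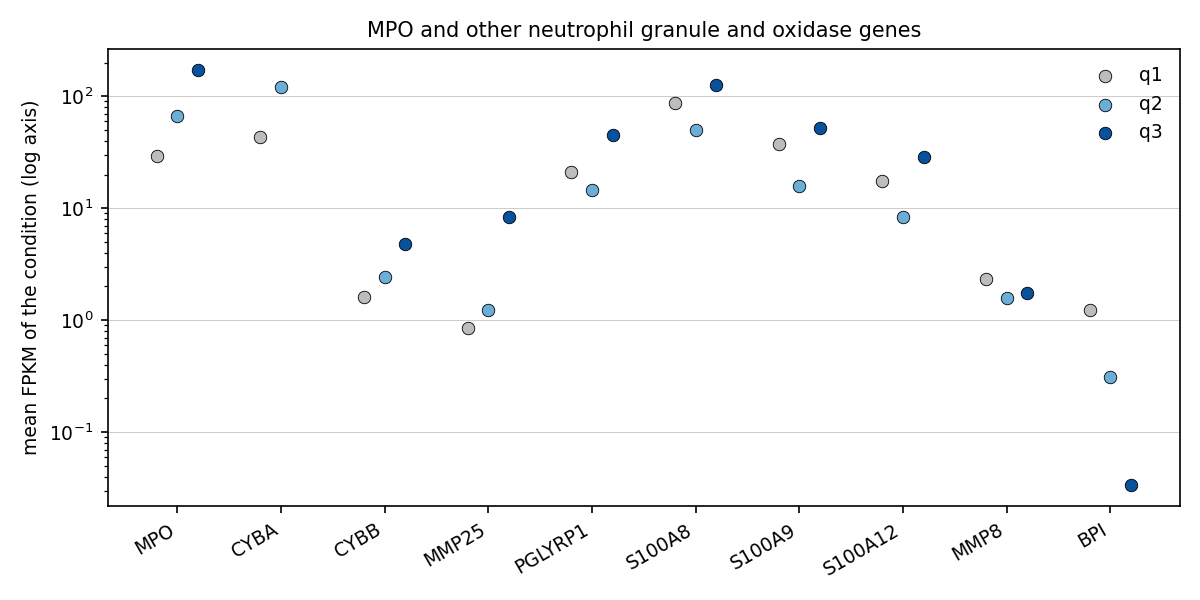
Mean FPKM of MPO and 9 other neutrophil granule, oxidase and cytosolic genes in q1 (grey), q2 (light blue) and q3 (dark blue) on a log axis. CYBA has no q3 value here. The q2 points of S100A8, S100A9, S100A12 and PGLYRP1 lie below their q1 points, while those of MPO and CYBA lie above theirs, at 66.9 and 122 FPKM.

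Of 27 receptor, adhesion and chemotaxis genes of neutrophils, 14 are in the table. Over the 5 that passed 1 FPKM the median log2 ratio of q2 to q1 was 0.92, and over 8 that of q3 to q1 was 3.08, against 0.60 and 1.92 for all genes. The median of all genes was exceeded by 7 of the 8 in q3 against q1, but 4 of the 8 were below 1 FPKM in q1 and passed only through q3, CSF3R among them. C5AR1, the receptor of complement fragment C5a, had 0.124, 0.357 and 2.45 FPKM in q1, q2 and q3. CXCL12, the chemokine that holds marrow cells in place, had 7.58, 14.3 and 33.95 FPKM, and its receptor CXCR4 had 2.91, 5.84 and 12.1 FPKM. ITGB2, the beta chain of leukocyte integrins, had 4.84, 10.2 and 31.1 FPKM. The genes of the receptors CXCR1, CXCR2, FPR1 and FPR2 were not found under these symbols, and CSF3, the ligand of CSF3R, is listed at 0 in all 3 conditions.

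Granulocyte transcription factors other than CEBPE were measured in larger number. Of 15 in the list 14 are in the table. The median log2 ratio of q2 to q1 was 0.68 over 11 of them and that of q3 to q1 was 2.13 over 9, close to the medians of all genes, with 3 genes passing only through the higher condition each time. SPI1 (PU.1), which acts in granulocytes, macrophages and clasts alike, had 2.21, 11.7 and 38.0 FPKM in q1, q2 and q3. GFI1, a repressor needed for neutrophil differentiation, had 0.483, 0.727 and 2.11 FPKM. CEBPD, of the same family as CEBPE, had 1.07, 1.75 and 9.95 FPKM. MYB, a factor of marrow progenitors, had 2.04, 2.36 and 1.36 FPKM and was thus lowest in q3, with a log2 ratio of q3 to q1 of -0.59.

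Around ALAS2, the haem and iron list holds 26 genes, of which 20 are in the table. Of the 16 that passed 1 FPKM in q2 or q1, 7 were at least 2-fold higher in q2 and none lower, beside 28.7% and 6.81% of all genes. Their median log2 ratio was 0.93, and 13 exceeded the 0.60 of all genes. Between q3 and q1, 12 of 13 were at least 2-fold higher and none lower, beside 76.3% and 6.05% of all genes, with a median of 2.51 against 1.92 for all genes. Of the genes that passed, 6 did so only through q2 and 5 only through q3. ALAS1, the form of the first enzyme that other cells use, had 3.84, 6.83 and 21.9 FPKM in q1, q2 and q3, so its log2 ratio of q2 to q1 was 0.83, exceeding 62.4% of all genes. ALAS2 was 1.61 times as high as ALAS1 in q2, against 0.190 times in q1. Enzymes of later steps had lower ratios of q2 to q1 than ALAS2. UROS had 0.925, 2.78 and 8.44 FPKM in q1, q2 and q3. UROD, the highest of the list, had 19.5, 19.3 and 92.4 FPKM and a log2 ratio of q2 to q1 of -0.0098. BLVRB, a reductase abundant in red cells, had 6.39, 21.4 and 62.2 FPKM.

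Of the globin genes only HBA was found by symbol among 14 looked for. HBA encodes the alpha chain of haemoglobin, the main protein of the red cell. It had 0.149 FPKM in q1, 0.0937 FPKM in q2 and 4.10 FPKM in q3. The other 13 symbols are not analysed here. HBA was higher in q3 than in q1, as were 88.0% of the 9610 genes compared, and it passed 1 FPKM only through q3. Its log2 ratio of q3 to q1 was 4.78, against a median of 1.92 for all genes, but it rests on a q1 value near 0. With 1 FPKM added to both values the ratio was 2.15. In q2 HBA was lower than in q1, whereas KLF1 was higher, with each of these values under 1 FPKM.

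The list of red cell membrane and skeleton genes holds 32 genes, of which 24 are in the table. In q2 against q1, 10 of the 18 that passed were at least 2-fold higher and none lower, beside 28.7% and 6.81% of all genes, and the median log2 ratio was 1.11 against 0.60. Over the 13 that passed in q3 against q1 the median was 2.02, against 1.92 for all genes. In the first comparison 4 passed only through q2, EPB42 among them, and in the second 3 only through q3. The most abundant of them, TPM3, CD59 and BSG, are made by most cells. SLC4A1, the anion exchanger that EPB42 binds, had 0.413, 1.14 and 2.69 FPKM in q1, q2 and q3. EPB41, the protein 4.1 that GYPC binds, had 0.656, 1.80 and 1.85 FPKM. RHAG, XK and KEL, of red cell blood groups, were under 1 FPKM in every condition listed. ANK1, the ankyrin of red cells, had 0.131 FPKM in q2, against 0.557 FPKM in q1. SLC4A1, EPB41, RHAG, XK, KEL and ANK1 were thus all below 3 FPKM where listed, with ratios in both directions.

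Of the erythroid transcription factors that passed 1 FPKM, KLF1 and TAL1 had the largest ratios of q3 to q1. Both were below 1 FPKM in q1 and passed only through q3, so these ratios rest on q1 values near 0. TAL1, a partner of GATA1 in erythroid gene activation, had 0.157, 0.382 and 4.90 FPKM in q1, q2 and q3, with a log2 ratio of q3 to q1 of 4.97, against 1.92 for all genes. Of 21 such genes 20 are in the table. The median log2 ratio was 0.63 in q2 against q1 over 10 genes and 1.71 in q3 against q1 over 12, near and below the medians of all genes. In the first comparison 1 gene passed only through q2, and in the second 4 only through q3, KLF1 and TAL1 among the 4. None was at least 2-fold lower. LYL1 passed in q2 against q1 only through q1, with 1.86 FPKM there and 0.963 FPKM in q2. Of the 12 genes, IKZF1 (log2 ratio -0.71) and MYB (-0.59) alone were lower in q3 than in q1. TCF3, LDB1 and SOX6, the most abundant, act in many cell types. GATA2, the factor that GATA1 replaces during erythroid differentiation, had 0.284, 0.300 and 0.150 FPKM. LMO2 is listed at 0 in q2 and q3, and GFI1B stayed between 0.0650 and 0.0764 FPKM.

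Other genes of red cell precursors lay on both sides of the medians of all genes, with 4 of 9 below in q2 against q1 and 3 of 8 below in q3 against q1. AHSP, which stabilizes free alpha globin, had 2.14, 6.82 and 16.0 FPKM in q1, q2 and q3. CA1, a carbonic anhydrase abundant in red cells, had 1.67, 9.28 and 19.6 FPKM. FAM132B, which encodes the iron hormone erythroferrone, had 0.102, 1.90 and 1.84 FPKM and passed in q2 against q1 only through q2. BNIP3L had 14.6 FPKM in q2, against 8.05 FPKM in q1. Of the 4 below the median in q2 against q1, KIT had 1.40 FPKM in q2, against 1.87 FPKM in q1. BPGM, also of these, had 2.37 FPKM in q2, against 2.50 FPKM in q1. Of 23 genes in this list 15 are in the table. For q2 against q1, 4 of the 9 that passed were at least 2-fold higher and none lower, beside 28.7% and 6.81% of all genes, with a median of 0.86 against 0.60. For q3 against q1 this held for 7 of the 8 that passed, 3 of them only through q3, beside 76.3% of all genes, and the median was 3.15 against 1.92. EPOR, the erythropoietin receptor, did not exceed 0.1 FPKM in any condition.

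**Figure D4:**
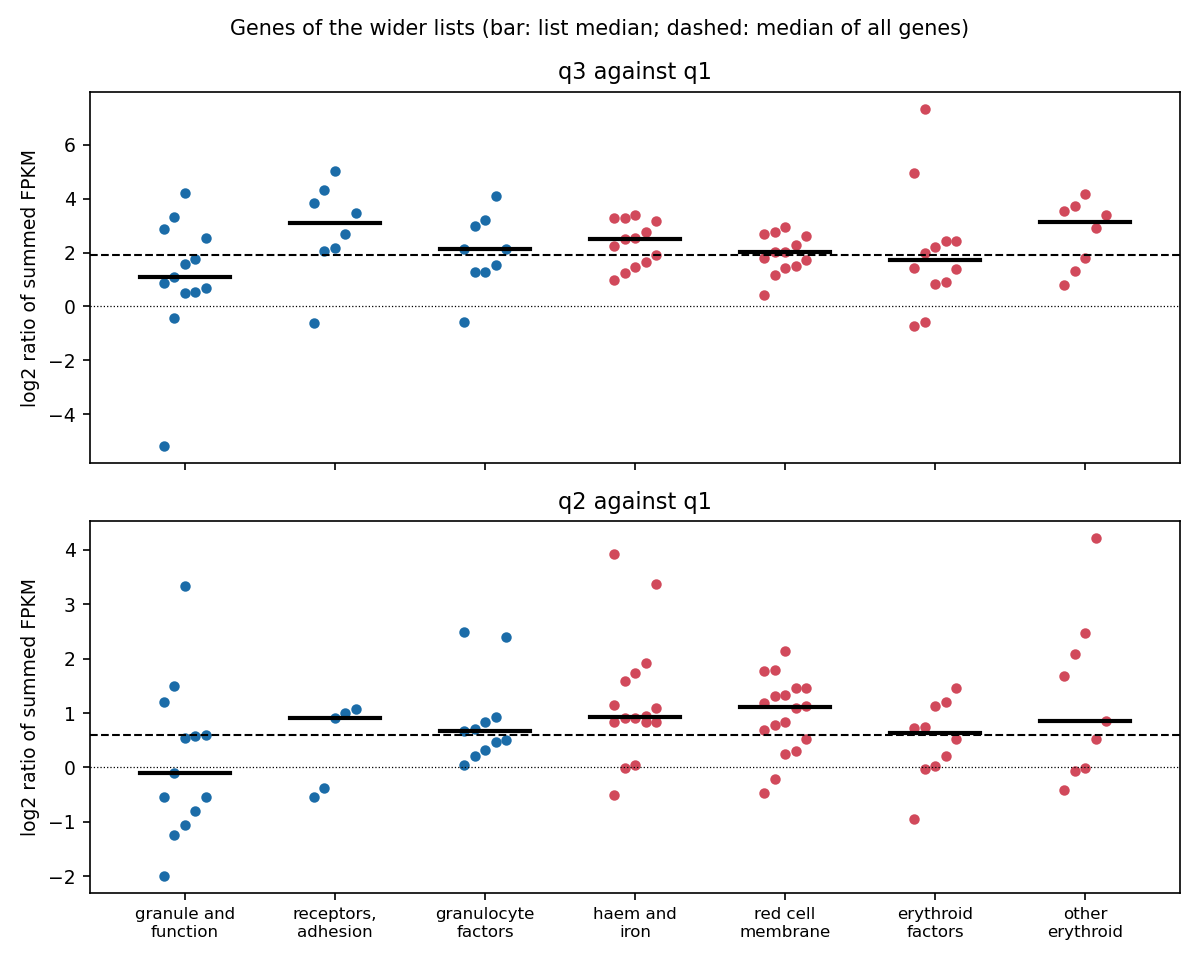
Log2 ratios of summed FPKM for the genes of 3 neutrophil lists (blue) and 4 red cell lists (red) that passed 1 FPKM, in q3 against q1 (top) and q2 against q1 (bottom). Each point is a gene, the thick bar is the median of the list and the dashed line the median of all genes. The granule list has its bar below the dashed line in both panels, at 1.08 and -0.11, and the haem and iron list above it, at 2.51 and 0.93.

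Cells of other kinds share many of these genes, and their levels differed between the conditions as well. Clast genes had a median log2 ratio of 1.78 in q2 against q1 and of 3.59 in q3 against q1 over 14 genes, against 0.60 and 1.92 for all genes, and the 14 listed in every condition summed to 1265, 4355 and 20439 FPKM in q1, q2 and q3. Of 16 clast genes in the table, CALCR and TCIRG1 are listed at 0. The 9 macrophage and monocyte genes listed in every condition summed to 46.8, 72.7 and 186 FPKM. Of 24 such genes 19 are in the table, C1QB among them is listed at 0, and the medians of those that passed were 0.51 and 1.69. The 9 endothelial genes listed in every condition summed to 24.5, 35.9 and 152 FPKM. Their part in the values of MPO, CSF3R, GYPC and the other 5 genes was not tested.

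The courses of CSF3R, MPO, KLF1 and GYPC over the 3 condition means were compared with those of up to 6752 named genes by the distance of their log2 ratios of q2 and of q3 to q1. The nearest to CSF3R were TAL1, at a distance of 0.14, and PTPRN, at 0.28, and 10 genes lay within 0.5. KLF1 had 1 gene within 0.5, TMC4 at 0.47, and CHRNA4 followed at 1.12. MPO had POMP and MYLK nearest, both within 0.02, but 1166 genes lay within 0.5. GYPC had 1262 genes within 0.5. CSF3R and KLF1 were near 0 in q1 and passed only through q3, so few genes could lie near their ratios. With 2 ratios per gene, single neighbours cannot be set apart.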

How the data were processed

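RNA of laser-captured tissue from 9 opossum pups was processed by the authors, whose notes name TopHat, Cufflinks and Cuffdiff. Their versions, the genome build, the annotation and the scaling of libraries are not stated in any source used. The authors deposited 1 mean FPKM per condition and TSS group, so replicates are pooled and depth per sample is unknown. The second FPKM column of the authors was recorded as a score only to keep both FPKM columns apart. The columns of the authors' own comparisons (fold changes, test statistics, p-values, q-values and calls) were not used, nor was the shorter table of called tests. Whether a TSS group was tested was read from the status column.

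For q3 the table lists 28026 of 37421 TSS groups (74.9%) in the order of their identifiers. A gene has a q3 value here only where all its TSS groups are among them. FPKM were summed per gene symbol. Log2 ratios were computed without a pseudocount where both values were above 0 and 1 of them at least 1 FPKM. A ratio counted as at least 2-fold from 1 on the log2 scale. A percentile is the share of genes with a lower value. The 8 genes and 17 gene lists were chosen with earlier results of these data known. Besides the 8 genes, the rule for named genes takes the 3 most abundant genes of each list, any globin or transcription factor of the lists, and the 2 nearest genes of each member. Other genes named were chosen after their values were seen, and some genes that the rule takes are not reported here. All 8 symbols matched the RefSeq table of assembly mMonDom1. The ratios were tested on simulated data. Python 3.11.15, numpy 2.4.6, pandas 2.3.3 and matplotlib 3.10.9 were used. Alternatives covered pseudocounts of 0.1 and 1, filters of 0 and 5 FPKM, tested TSS groups only, the most abundant TSS group only, centring on the median, and leaving out single members.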

Additional observations from a re-analysis of the deposited data

How the results depend on the processing

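No paired analysis was possible because the table holds no value per animal. With no spread known, a ratio counted as moved when it differed by more than 1.5-fold. Centring, which subtracts the median of all genes, turned the log2 ratio of GYPC negative in q2 against q1 (-0.30) and in q3 against q1 (-0.19). In q2 against q1 it also turned the medians of megakaryocyte and platelet (-0.18), macrophage and monocyte (-0.092), stem and progenitor cell (-0.54) and endothelial genes (-0.024). For q3 against q1 it turned those of neutrophil granule and function genes (-0.85), erythroid transcription factors (-0.22), and megakaryocyte and platelet (-1.07), eosinophil, basophil and mast cell (-1.11), macrophage and monocyte (-0.24), lymphocyte (-1.50), stem and progenitor cell (-0.27) and cartilage genes (-1.67). For q3 against q2 it turned those of other erythroid (-0.058), eosinophil, basophil and mast cell (-0.68), cartilage (-0.082) and bone genes (-0.030).

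The difference in median log2 ratio between neutrophil and erythroid genes was -0.42 in q2 against q1 and became 0.34 with a pseudocount of 1. In q3 against q1 it was -0.75, and became -0.16 with a pseudocount of 0.1, 0.15 with one of 1, and 0.82 with a filter of 5 FPKM. It was -1.98 without CSF3R, 0.48 without MPO, 2.05 without KLF1 and -3.55 without GYPC. Its sign thus depends on single genes.

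In q2 against q1 the 3257 genes at least 2-fold higher became 1734 with a pseudocount of 1, 1126 with centring and 1556 with a filter of 5 FPKM. The 773 lower genes became 328, 1643 and 71 under these, and 2042 without a filter. In q3 against q1 the 7335 higher genes became 1448 with centring, and the 581 lower genes became 2161 with centring, 254 with a pseudocount of 1, 1919 without a filter and 30 with a filter of 5 FPKM. In q3 against q2 the 6251 higher genes became 964 with centring, and the 408 lower genes 1469 with centring, 159 with a pseudocount of 1, 169 with tested TSS groups only, 1517 without a filter and 23 with a filter of 5 FPKM. Of the 13 ratios of single members, 10 moved by less than 1.5-fold with a pseudocount of 0.1 and 6 with one of 1. With centring the count was 0, which was fixed beforehand, as each median subtracted exceeds 1.5-fold. Without a filter it was 13, also fixed, because a filter decides only which genes enter. It was 13 with tested TSS groups only and 12 with the most abundant TSS group. Among the members only GATA1 and ALAS2 have more than 1 TSS group, so the other ratios could not move there. The exception with the most abundant TSS group was ALAS2 in q2 against q1, at 4.90. With a filter of 5 FPKM only 7 of the 13 could be computed, and a filter cannot move these 7.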

Other observations

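Genes of mast cells held values of their own. CMA1, which encodes the protease chymase of mast cells, had 38.5 FPKM in q2, against 0.371 FPKM in q1. Its log2 ratio was 6.70, against 0.60 for all genes, but CMA1 passed 1 FPKM only through q2. CPA3, the carboxypeptidase of mast cells, had 1.68, 5.98 and 27.97 FPKM in q1, q2 and q3. MS4A2, a chain of the IgE receptor, had 2.54, 1.75 and 2.77 FPKM, and EPX, the eosinophil relative of MPO, had 0.823, 0.998 and 0.662 FPKM. Over the list of 17 genes, 12 are in the table, and the median log2 ratio was 0.96 in q2 against q1 over 7 and 0.81 in q3 against q1 over 5, against 0.60 and 1.92 for all genes.

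Megakaryocyte and platelet genes lay on both sides of the shift. Over 5 genes that passed 1 FPKM their median ratio between q3 and q1 was 0.85 (log2), with 2 of the 5 above the 1.92 of all genes, and it was 2.27 with a filter of 5 FPKM. Between q3 and q2 it was 1.59, against 1.33 for all genes. ITGA2B, the platelet integrin chain, had 0.418, 0.482 and 0.205 FPKM in q1, q2 and q3, while THBS1, which many cells make, had 20.0, 14.4 and 36.1 FPKM. Of the lymphocyte list only LAT, PAX5 and MS4A1 passed 1 FPKM. LAT had 1.74, 7.95 and 41.4 FPKM in q1, q2 and q3, MS4A1 of B cells had 1.16, 0.319 and 0.210 FPKM, and CD3D of T cells did not exceed 0.2 FPKM. PTPRC, the common leukocyte antigen, had 0.447, 1.38 and 8.39 FPKM.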
